A study of Mus musculus with 30 samples.

Results

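The nuclear genes for subunits of the mitochondrial respiratory chain and the ATP synthase were followed through whole intestinal tissue of C3H/HeOuJ mice. Genes were chosen by symbol, with the patterns Nduf, Sdh, Uqcr, Cyc1, Cox and Atp5, and kept where at least 3 of the 30 libraries held it at 1 or more CPM, the usual scaling of counts to library size. Of 24746 gene symbols 80 matched, and 77 passed. They are 34 subunits of complex I, 4 of complex II, 9 of complex III, 14 of complex IV, 15 of complex V and Atp5s, the coupling factor B of the ATP synthase. Beyond the symbols, the rule itself uses only this detection level. Just above it lay Cox6a2, at or over 1 CPM in 10 libraries, and Cox8b, in 14 libraries. Cox7b2, Cox8c and Ndufs5 fell outside and were listed at 0 in every library. Of the short stretches at the end of Ndufs5 transcripts, measured as for Cox7c below, 52% also occur in transcripts of another gene. This share was 0% for Cox7b2 and Cox8c. Reads that align to several places are left out of the counts. Cox7c, with a share of 98.7%, and Atp5g2, with 62.2%, still reached 1 CPM in all 30 libraries. The 0 of Ndufs5 alone does not show that it was not expressed. The cause of that 0 was not tested. The 75 other genes that passed reached 1 CPM in all 30 libraries. Ndufa4 is counted here with complex IV, to which it is now assigned in spite of its name.

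The respiratory chain passes electrons from NADH, through complex I, and from succinate, through complex II, to ubiquinone. Complex III hands them on to cytochrome c and complex IV to oxygen. Complexes I, III and IV pump protons as they do so, and complex V, the ATP synthase, makes ATP from the returning protons. Most subunits are encoded in the nucleus, and colonocytes are known for burning bacterial butyrate through this chain. A few subunits have tissue isoforms, such as the muscle forms Cox6a2, Cox7a1 and Cox8b and the testis form Cox6b2.

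Each of 10 groups held 3 libraries. Distal colon came from mice 10 weeks old, either specific pathogen free (SPF) or raised germ-free and colonised in week 5 with SPF microbiota (COL). Both statuses were sampled untreated and after 4 days of 1.5% dextran sulfate sodium (DSS) and 2 days of water. DSS is taken up in drinking water and damages the lining of the colon. Terminal ileum came from untreated germ-free (GF), SPF and COL mice at 6 and at 10 weeks of age. The libraries are 3′ tag libraries, in which 1 tag stands for 1 transcript, so that levels are not divided by gene length. They held 3830539 to 6791455 reads assigned to genes in colon and 2233837 to 9088573 in ileum. The labels do not tie the libraries to separate mice. The p-values therefore set group differences only against the spread among these libraries, and that spread may be technical. Levels are CPM scaled with TMM factors over all 30 libraries, given for replicates 1, 2 and 3 in that order. A gene was called where edgeR's quasi-likelihood test gave a Benjamini-Hochberg adjusted p under 0.05 over all genes tested. In whole tissue, fewer cells of a type and less RNA per cell cannot be told apart.

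Promoters are shown for 3 subunits whose values follow, as examples of the start-site regions of these genes. Each line gives the 250 bases before the RefSeq start (GRCm38.p6) on the gene's own strand, 5′ to 3′. Capitals mark a match to a motif of a factor or element known from promoters of such genes, on either strand. For Atp5l (chr9:44920743-44920992, minus strand) it is TATAAA, the letters of the TATA box. This match is on the other strand and near the middle of the window, so it is not shown to be a TATA box of this gene. For Uqcr11 (chr10:80406822-80407071, minus strand) it is the ETS site CCGGAAGT, which GABP can bind. For Cox6a1 (chr5:115348959-115349208, minus strand) it is the NRF-1 site, searched with exactly the letters in capitals there.
Atp5l: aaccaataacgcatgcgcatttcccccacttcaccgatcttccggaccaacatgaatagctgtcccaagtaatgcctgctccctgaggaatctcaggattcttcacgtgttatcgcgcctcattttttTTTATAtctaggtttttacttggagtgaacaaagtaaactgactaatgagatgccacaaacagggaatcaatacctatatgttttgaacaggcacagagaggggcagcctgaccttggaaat
Uqcr11: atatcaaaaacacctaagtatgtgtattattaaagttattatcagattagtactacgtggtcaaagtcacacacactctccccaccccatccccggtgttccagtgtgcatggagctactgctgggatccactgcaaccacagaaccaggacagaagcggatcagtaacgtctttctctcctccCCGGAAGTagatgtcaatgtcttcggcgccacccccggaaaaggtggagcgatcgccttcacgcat
Cox6a1: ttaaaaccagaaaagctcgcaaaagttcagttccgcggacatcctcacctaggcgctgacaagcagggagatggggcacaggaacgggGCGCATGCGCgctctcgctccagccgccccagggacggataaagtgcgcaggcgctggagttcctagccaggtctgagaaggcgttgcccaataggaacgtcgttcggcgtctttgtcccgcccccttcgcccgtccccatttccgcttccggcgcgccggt

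RefSeq promoter windows were at hand for 63 of the 77 genes, 68 windows in all. The NRF-1 site lay in 4 of them (5.88%, in Atp5g2, Atp5k, Cox6a1 and Ndufa11) and in 0.782% of all 32851 windows of the same length. The CRE element TGACGTCA lay in 4 (5.88%, in Ndufa10, Ndufa11, Ndufb2 and Uqcrfs1) against 1.55% of all windows. The ETS site lay in 3 (4.41% against 2.88%). The letters TATAAA, on either strand and at any place in the window, lay in 6 (8.82% against 12.4%). AAGATGGCG, a YY1 site, and TCAAGGTCA, an ERR site, were in 1 window each, of Atp5j and Atp5g3. The 13 genes with windows that rose after DSS in SPF colon, described below, had 14 windows. Of those, 0 held the NRF-1 site, 1 the ETS site, 1 the CRE and 2 the letters TATAAA. These are matches of letters, and no binding was measured.

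In SPF colon, mRNAs for some subunits of each of the 5 complexes were called higher after DSS. The higher calls in complex IV each depended on single libraries. In 3 DSS libraries against 3 untreated ones, 15 of the 76 genes tested rose and 2 fell, which is 22.4% called. Among all 12855 genes tested 24.1% were called, 12.2% higher and 11.9% lower, so the share of subunits called was near the background, while their calls were split 19.7% higher to 2.63% lower. The median log2 fold change of the subunits was 0.23, against -0.03 over all genes, and 55 of 76 were positive. The DSS and untreated libraries did not overlap for 24 subunits with higher values (17.2% of all genes) and 2 with lower values (17.1% of all genes). Summed over complex V, the 3 DSS libraries stood at 14417, 14281 and 14236 CPM and the untreated ones at 10149, 10351 and 9177 CPM. Much of this sum is Atp5g3, which was not called. On average it made up 6173 of 14311 CPM after DSS and 3844 of 9892 CPM without. All 15 genes of complex V had positive values, with a median of 0.51. For complex III the median was 0.35 (8 of 9 positive), for complex II 0.26 (3 of 4), for complex I 0.17 (21 of 34) and for complex IV 0.09 (8 of 13). All 77 genes together took 4.26% ± 0.28 (SD, n = 3) of the assigned reads after DSS and 3.55% ± 0.262 (SD, n = 3) without it.

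**Figure D1:**
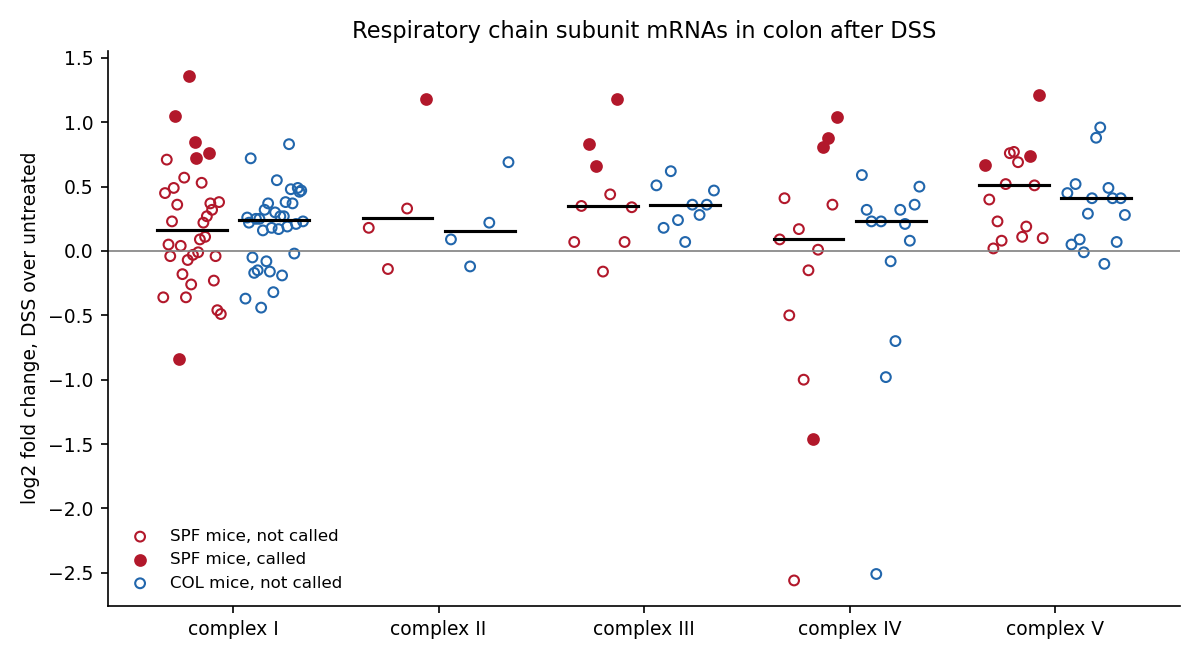
The y axis gives the log2 fold change of each subunit mRNA in colon, DSS over untreated, and the x axis the complex (Atp5s is not drawn). Red points are SPF mice, blue points COL mice, filled points are genes called by edgeR and bars are medians; all 15 red points of complex V lie above 0, and no blue point is filled.

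Complex I, the NADH dehydrogenase, had 5 subunits that rose and 1 that fell. Ndufb3, an accessory subunit of the membrane arm, measured 709, 1624 and 1079 CPM after DSS and 568, 350 and 416 CPM without it. The groups did not overlap, and the log2 fold change was 1.36 ± 0.35 (SE), with an edgeR adjusted p of 0.01. Without replicate 2 of the DSS group, the highest library, it was 1.02 with an adjusted p of 0.061. Ndufb6, another accessory subunit of that arm, stood at 152, 150 and 137 CPM against 76.9, 96.4 and 71 CPM. Its 3 DSS libraries lay close together and above every untreated one (0.85 ± 0.20, adjusted p 0.0061). Ndufa5 (1.05 ± 0.30), Ndufb7 (0.72 ± 0.21) and Ndufs3, a core subunit of the matrix arm (0.76 ± 0.24), were also called, each without overlap. Ndufa7, an accessory subunit of the matrix arm, went the other way, with 561, 284 and 235 CPM after DSS and 658, 596 and 681 CPM without. All DSS libraries were below the untreated ones (-0.84 ± 0.28, adjusted p 0.038), with replicate 1 close to them. The call of Ndufa7 was lost without any 1 of 5 of these 6 libraries, at adjusted p-values from 0.058 to 0.16.

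Complex II, succinate dehydrogenase, has 4 genes, of which Sdhd was called. Sdhd encodes a membrane anchor of the complex and measured 262, 453 and 326 CPM after DSS and 211, 123 and 128 CPM without it. Each DSS library was above each untreated library, at a log2 fold change of 1.18 ± 0.27 and an adjusted p of 0.0054, the smallest among the subunits. In complex III, Uqcrfs1, the Rieske iron-sulfur protein, measured 471, 685 and 643 CPM against 257, 337 and 203 CPM. The groups were apart, with a rise of 1.18 ± 0.27 (adjusted p 0.0062). The small subunit gene Uqcr11, whose promoter is shown above, gave 388, 331 and 284 CPM against 187, 193 and 185 CPM. Its untreated libraries agreed closely and the DSS libraries were all higher (0.83 ± 0.22, adjusted p 0.012). Uqcrb, a subunit near the ubiquinone site, was at 0.66 ± 0.22. Uqcrc1, a core subunit, was not called and held 545 CPM in replicate 1 of the DSS group against 214 and 213 CPM in the others.

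Complex IV, cytochrome c oxidase, had 3 subunits that rose and 1, Cox7a1, that fell. Cox7c rose by 0.88 ± 0.26 and Cox7b by 0.81 ± 0.23, both small structural subunits and both without overlap. Of the last 200 bases of Cox7c transcripts, 98.7% of the 50-base stretches also occur in transcripts of other genes, and reads that align to several places are left out of the counts, so its level is uncertain. The same share was 62.2% for Atp5g2, 51% for Ndufs3 and 50.3% for Atp5l, and 0% for 54 of the 77 genes. Ndufa4 measured 69, 198 and 125 CPM after DSS and 73, 48.7 and 69.7 CPM without. Replicate 1 of the DSS group lay within the untreated range, so the groups overlapped although the gene was called (1.04 ± 0.32, adjusted p 0.026). Without replicate 2 of the DSS group the value was 0.61, with an adjusted p of 0.18. The call was also lost without replicate 3 of that group and without untreated replicate 2, at adjusted p-values of 0.052 and 0.1.

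Complex V had 3 subunits that rose and none that fell. Atp5l, subunit g of the membrane part of the ATP synthase, measured 103, 143 and 158 CPM after DSS and 54.5, 52.4 and 68.1 CPM without. The groups were apart by a wide gap, with a log2 fold change of 1.21 ± 0.28 and an adjusted p of 0.0056. Atp5j2, subunit f, rose by 0.74 ± 0.22, and Atp5a1, the alpha subunit of the catalytic head, by 0.67 ± 0.23 (adjusted p 0.048). The genes Atp5g1, Atp5g2 and Atp5g3 encode the same mature subunit c, whose ring turns with the proton flow. Atp5g3 measured 5239, 6590 and 6689 CPM after DSS and 3982, 4599 and 2950 CPM without. Its groups did not overlap, but it was not called (0.69 ± 0.31, adjusted p 0.11), nor were Atp5g1 (0.76 ± 0.29, adjusted p 0.069) and Atp5g2 (0.77 ± 0.33, adjusted p 0.1). Usmg5, a small ATP synthase subunit whose symbol the pattern does not match, measured 540, 645 and 646 CPM against 288, 310 and 176 CPM. It rose by 1.25 ± 0.26 (adjusted p 0.0037). Cox4i1, the common form of subunit 4 of complex IV and also outside the pattern, was not called (-0.39 ± 0.32).

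**Figure D2:**
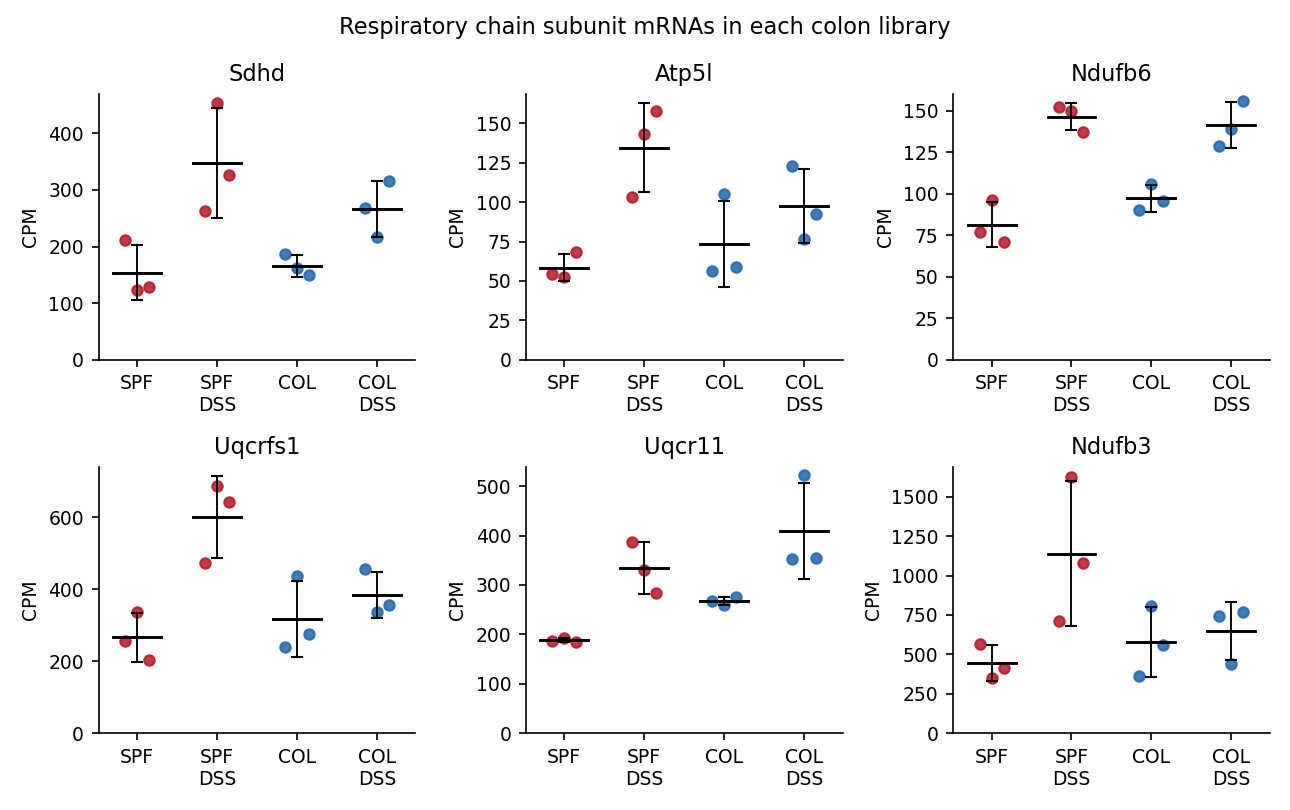
The y axes give CPM and the x axes the 4 colon groups, for 6 subunits that rose in SPF mice after DSS. Points are libraries, bars means and whiskers SD (n = 3); in SPF mice (red) all 3 DSS libraries of each gene stand above all 3 untreated ones, and in COL mice (blue) they do so for Sdhd, Ndufb6 and Uqcr11.

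Leaving out each of the 6 libraries in turn gave 9 to 16 called subunits in SPF colon. Sdhd, Atp5l, Ndufb6, Uqcrfs1 and Uqcr11 were called each time, and the other 12 lost their call without at least 1 library. Under the other settings tried, Uqcr11 also lost its call, at an edgeR adjusted p of 0.051. Sdhd, Atp5l, Ndufb6 and Uqcrfs1 kept theirs. The count was 10 without DSS replicate 2 or DSS replicate 3, 11 without untreated replicate 1 and 9 without untreated replicate 2. With only these 6 libraries in the fit it was 5. Proliferation markers moved with the DSS groups: 4 of the 5 rose in SPF colon, and their summed level was 555 to 745 CPM after DSS and 178 to 233 CPM without. In COL colon all 5 rose, and their sum was 518 to 567 CPM after DSS and 107 to 218 CPM without. Summed smooth muscle markers were 1484 to 3523 CPM after DSS and 6251 to 7413 CPM without in SPF colon, with 6 of 8 lower, and 1711 to 5208 against 6091 to 7109 CPM in COL colon, with 2 of 8 lower. In SPF colon 3 of 4 colonocyte markers fell (2050 to 5038 against 5989 to 9502 CPM), as did 2 of 4 in COL colon (3237 to 5062 against 6854 to 7483 CPM). In SPF colon neutrophil markers reached 10.7, 76.4 and 1021 CPM after DSS with at most 1.03 CPM in an untreated library. In COL colon they were 24.7, 9.1 and 4.63 CPM after DSS and again at most 1.03 CPM without. Among all genes 12.2% rose and 11.9% fell in SPF colon, and 7.14% were called in COL colon. Marker counts in SPF and COL mice are therefore not directly comparable. The part of the marker shifts in the subunit values was not tested.

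In COL colon the same treatment gave values of the same sign for most subunits but no calls. With edgeR 0 of 76 were called, against 7.14% of all genes, 13 had an unadjusted p under 0.05, and DESeq2 called 4, all higher. The median log2 fold change was 0.25, against 0.01 over all genes, and 59 of 76 were positive. Groups did not overlap for 23 subunits with higher values (17.2% of all genes) and 4 with lower values (17.3% of all genes). Complex V again had the highest median (0.41, 13 of 15 positive), and its summed levels were 14016, 12981 and 18564 CPM after DSS and 9802, 11596 and 10587 CPM without. Of these sums Atp5g3 made up on average 6752 of 15187 CPM after DSS and 3490 of 10662 CPM without. The comparisons in SPF and COL mice share no library. Of the 15 subunits that rose in SPF mice 14 had a positive value in COL mice, with a median of 0.41 against 0.85 in SPF mice. Among all genes, 1479 of the 1570 that rose in SPF mice were positive in COL mice, with medians of 0.65 and 1.18. Both sets were chosen by their call in SPF mice, which favours high SPF values. Signs were the same for 76.3% of subunits and for 74.1% of all genes.

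Sdhd measured 268, 217 and 316 CPM after DSS in COL mice and 187, 162 and 149 CPM without. These groups did not overlap either, at 0.69 ± 0.26 (adjusted p 0.12). Ndufb6 stood at 129, 139 and 156 CPM against 90, 106 and 95.5 CPM, also apart (0.55 ± 0.20, adjusted p 0.099). Ndufb3, the subunit with the highest value in SPF mice, gave 744, 439 and 766 CPM against 364, 807 and 559 CPM. Its COL groups overlapped (0.18 ± 0.34, adjusted p 0.81), and the difference between the statuses in its DSS value was -1.18 ± 0.48 with an adjusted p of 0.56. Atp5g3 had the lowest p in COL mice, with 6068, 4250 and 9937 CPM after DSS and 2916, 4056 and 3500 CPM without (0.96 ± 0.31, adjusted p 0.069). Replicate 3 of the COL DSS group was the highest library there, as it was for Ndufb11, a complex I subunit, at 159 CPM against 51 and 65.3 CPM. The test of the difference in the DSS value between COL and SPF mice called 0 subunits by edgeR and by DESeq2, with 5 at an unadjusted p under 0.05, and 0% of all genes by edgeR.

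COL and SPF colon were also compared directly. Untreated, 0 of 76 subunits differed by edgeR or DESeq2 (3 at an unadjusted p under 0.05, background 0%), and the median difference was 0.11. After DSS it was again 0 by both tools (6 at an unadjusted p under 0.05, background 0.00778%), with a median of 0.05. Untreated Uqcr11 measured 268, 260 and 276 CPM in COL mice and 187, 193 and 185 CPM in SPF mice (0.50 ± 0.22, adjusted p 0.63). These groups did not overlap, but Uqcr11 was not alone in this. Other subunits did not overlap in either direction, such as Atp5b and Ndufa1, higher in COL mice, and Ndufb8, lower.

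Other genes of the same organelle were read in the same fit. Of 75 mitochondrial ribosomal protein genes 25 rose and 0 fell after DSS in SPF colon, with a median of 0.53 (33.3% higher, against 12.2% of all genes), and 2 rose in COL colon (2.67%, against 4.14% of all genes). Of 38 assembly factors, which build the complexes without staying in them, 7 rose and 0 fell in SPF colon, or 18.4% higher against 12.2% of all genes. Cox10 and Cox11, which make heme and insert copper for complex IV, rose by 1.00 ± 0.21 and 1.22 ± 0.30. In COL colon Cox10 rose by 0.73 ± 0.21 (adjusted p 0.043), and Surf1, another complex IV factor, fell by 0.95 ± 0.23 on the log2 scale (adjusted p 0.019). Of 18 genes of the citric acid cycle and pyruvate entry 3 rose in SPF colon (16.7%, near the 12.2% of all genes), among them Sucla2 (0.92 ± 0.22) and Dlst (0.75 ± 0.19). Their summed level overlapped between the groups, at 4502 to 5306 CPM after DSS and 3993 to 5616 CPM without. Of 16 glycolysis and lactate genes 3 rose (18.8%, against the same 12.2%), with Hk2, a hexokinase, at 1.56 ± 0.28. Among 17 regulators of mitochondrial biogenesis 2 rose and 2 fell (11.8% each, near the 12.2% and 11.9% of all genes). Ppargc1a, a coactivator that raises transcription of mitochondrial genes, measured 67.1, 40.9 and 50.5 CPM after DSS and 101, 135 and 149 CPM without in SPF colon. It fell by 1.28 ± 0.25 on the log2 scale with an adjusted p of 0.0025, the opposite sign from most subunits. In COL colon Ppargc1a was at 89, 57.7 and 106 CPM against 92, 102 and 98.7 CPM (-0.20 ± 0.25, adjusted p 0.67). Called there after DSS were Ppargc1b from the same list and Tpi1 and Ldha from the glycolysis and lactate list. Tfam, a factor for mitochondrial DNA, was not called in either status. Of 70 cytosolic ribosomal protein genes 18 rose in SPF colon (25.7%), with a median of 0.48. The mitochondrially encoded subunits were not analysed here.

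The muscle, heart and testis isoforms were set beside their widely expressed partners. Cox7a1 measured 60.5, 26.4 and 13 CPM in SPF colon after DSS and 152, 55.5 and 68.6 CPM without. The groups overlapped, but the gene was called lower (-1.46 ± 0.48, adjusted p 0.039). Without untreated replicate 1, the highest library, the value was -0.89 with an adjusted p of 0.19, and 3 other libraries also decided the call, at adjusted p-values from 0.051 to 0.13. In COL colon it was 32.1, 52.2 and 59.1 CPM against 70.9, 88.5 and 75 CPM, without overlap and not called (-0.70 ± 0.47, adjusted p 0.4). The partner Cox7a2 held 842, 510 and 441 CPM after DSS and 517, 658 and 601 CPM without in SPF colon, a difference of 0.01 ± 0.25. Cox6a2 and Cox8b never passed 7.15 and 8.23 CPM in any library, and their groups held 6 to 51 and 5 to 64 counts in all. Cox6a2 measured 1.04, 0.37 and 0 CPM in SPF colon after DSS and 7.15, 2.26 and 0 CPM without, from 8 and 40 counts. The groups overlapped, and the value of -2.56 ± 1.23, the farthest from 0 in complex IV, was not called (adjusted p 0.14). In COL colon it measured 0.41, 0 and 1.05 CPM against 2.84, 0.689 and 4.92 CPM, also overlapping (-2.51 ± 1.21, adjusted p 0.23). Partners Cox6a1 and Cox8a ran from 449 to 1866 CPM and from 1116 to 3497 CPM. Of 8 skeletal muscle markers 4 were tested in SPF colon after DSS, with 1 higher and 1 lower. Myh4, a fast myosin, was at 0 in every colon library, and Mb and Myl1 did not pass 0.223 CPM there. The brown fat marker Ucp1 was at 0 in every colon library.

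In ileum few subunits were called between microbiota statuses. At 6 weeks 1 of 76 was called between SPF and GF mice, where 7.69% of all genes were called. At the same age 0 were called between COL and GF mice (background 4.64%, 7 at an unadjusted p under 0.05, 0 by DESeq2). At 10 weeks 0 were called between SPF and GF mice (background 6.2%, 4 at an unadjusted p under 0.05, 0 by DESeq2) and 1 between COL and GF mice (background 9.14%). These comparisons share the GF libraries of each age. The medians were 0.11 and 0.07 at 6 weeks and -0.04 and -0.09 at 10 weeks, for SPF and COL mice in that order, and -0.02, -0.02, 0.02 and 0.01 over all genes. The direction at 6 weeks depended on the measure. Without scaling, the 77 genes together took 3.27% ± 0.0498 (SD, n = 3) of the assigned reads in GF, 3.14% ± 0.125 in SPF and 2.98% ± 0.05 in COL ileum, lower than in GF mice where the scaled medians were higher. At 10 weeks they took 3.33% ± 0.0953, 3.07% ± 0.166 and 3.11% ± 0.127. Between COL and SPF ileum edgeR and DESeq2 called 0 at either age (backgrounds 0.0982% and 0.0907%), with 4 and 7 subunits at an unadjusted p under 0.05.

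The subunit called was Cox7a1 both times. At 6 weeks it measured 57.9, 69.1 and 52.8 CPM in SPF ileum and 120, 73.9 and 103 CPM in GF ileum. The groups were apart by a small gap (-0.71 ± 0.19, adjusted p 0.022). At 10 weeks it measured 47.4, 50.3 and 44.9 CPM in COL ileum and 67.4, 88.6 and 80.2 CPM in GF ileum, apart by more (-0.68 ± 0.20, adjusted p 0.026). SPF ileum at 10 weeks, at 58.7, 80.5 and 80.4 CPM, overlapped with GF ileum (-0.08 ± 0.19). Each call was lost without any of 4 single libraries, replicates 1 and 3 of both groups at 6 weeks and replicates 2 and 3 of both at 10 weeks, with adjusted p-values from 0.05 to 0.14. Summed smooth muscle markers were 6428 to 6714 CPM in GF and 5036 to 6057 CPM in SPF ileum at 6 weeks, and 3827 to 7130 CPM in GF and 3525 to 4528 CPM in COL ileum at 10 weeks. In SPF ileum at 10 weeks they were 2653, 4043 and 1101 CPM. The part of muscle content in the Cox7a1 values was not tested.

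**Figure D3:**
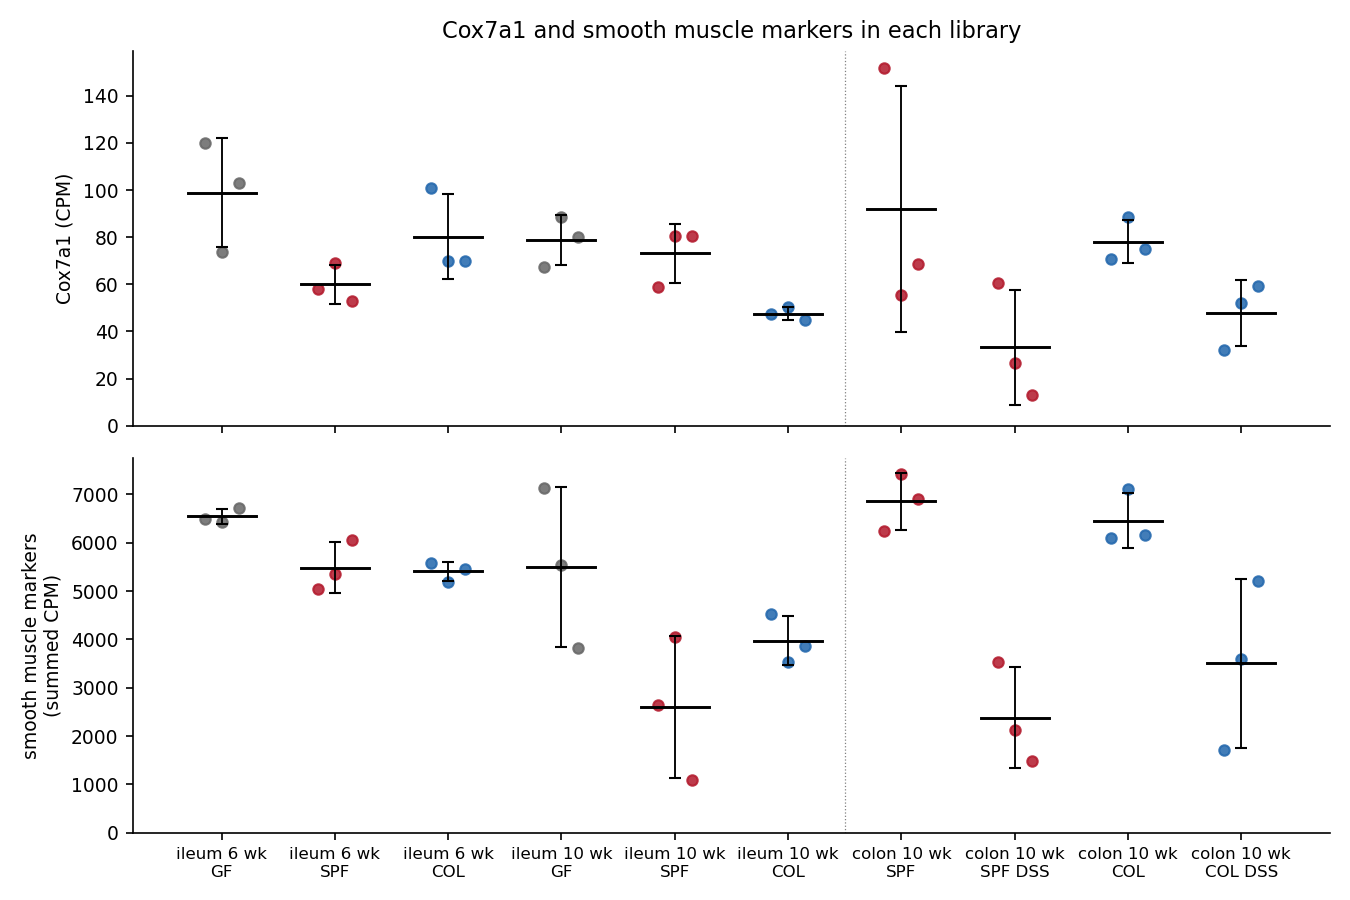
The x axis gives the 10 groups, the upper y axis Cox7a1 in CPM and the lower the summed CPM of 8 smooth muscle markers; points are libraries, bars means and whiskers SD (n = 3). In SPF colon after DSS, Cox7a1 lies between 13 and 60.5 CPM and the marker sum between 1484 and 3523 CPM.

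Between 6 and 10 weeks of age most ileal subunits had small negative values in SPF and COL mice on the scaled levels. COL mice were colonised in week 5, so in them age and time since colonisation cannot be told apart. In SPF ileum the median was -0.13 (20 of 76 positive, 0.04 over all genes) and 0 were called by edgeR, with 13 at an unadjusted p under 0.05, 2 lower by DESeq2 and a background of 1.37%. In COL ileum the median was -0.14 (19 of 76 positive, 0.01 over all genes) and 1 was called, against 2.53% of all genes. The unscaled share of reads went the other way in COL ileum, from 3.03, 2.96 and 2.94% at 6 weeks to 3.15, 2.97 and 3.21% at 10 weeks, and in SPF ileum it was 3, 3.18 and 3.24% and then 2.88, 3.16 and 3.17%, with overlap. In GF ileum the median was 0.02 (45 of 76 positive, -0.01 over all genes), with 0 called by either tool, 0 at an unadjusted p under 0.05 and a background of 0.0302%. Cox6a1, the widely expressed partner of Cox6a2, came nearest in SPF ileum, at 449, 607 and 732 CPM at 10 weeks and 1094, 1119 and 758 CPM at 6 weeks. Those groups did not overlap (-0.72 ± 0.19, adjusted p 0.057). The test of the COL to GF difference between the ages called 0 subunits by both tools (2 at an unadjusted p under 0.05, background 0.144%).

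Ndufa4 was the subunit called between the ages in COL ileum, where time since colonisation differed as well, and its value was positive. It measured 180, 138 and 126 CPM at 10 weeks and 91.4, 95.7 and 69.7 CPM at 6 weeks. The groups were apart (0.84 ± 0.21, adjusted p 0.031), but leaving out any of 5 single libraries, all but replicate 3 at 10 weeks, lost the call, at adjusted p-values from 0.054 to 0.2. GF ileum held 78.1, 109 and 165 CPM at 6 weeks and 122, 119 and 100 CPM at 10 weeks, and SPF ileum 110, 112 and 146 CPM and 107, 116 and 103 CPM. Its level was lower in colon, as given below.

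AA467197, also called Nmes1, encodes a small protein related to Ndufa4 that can take its place in complex IV, and it lies at chr2:122636986-122641191 of GRCm38 by GENCODE. It is outside the symbol pattern and was read as a paralog. GF ileum held 151, 102 and 121 CPM at 6 weeks and 118, 95 and 75 CPM at 10 weeks. SPF ileum held 538, 509 and 214 CPM at 6 weeks and 139, 249 and 183 CPM at 10 weeks, and COL ileum 344, 473 and 583 CPM and 289, 286 and 398 CPM. Every colonised library at an age lay above every GF library of that age. The rise over GF mice was 1.76 ± 0.31 (SPF, adjusted p 0.0012) and 1.89 ± 0.31 (COL, adjusted p 0.0011) at 6 weeks, and 1.80 ± 0.31 in COL mice at 10 weeks (adjusted p 0.001). In SPF mice at 10 weeks it was 1.01 ± 0.30 with an adjusted p of 0.058. Each of the 3 calls was made again without each single library and under the other settings tried, with adjusted p-values up to 0.031. Ndufa4 was not called in any of these comparisons with GF mice. DSS gave no call for AA467197 in SPF (0.14 ± 0.30) or COL colon (0.12 ± 0.30). The other paralog, Ndufa4l2, did not pass 1.73 CPM in any library.

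**Figure D4:**
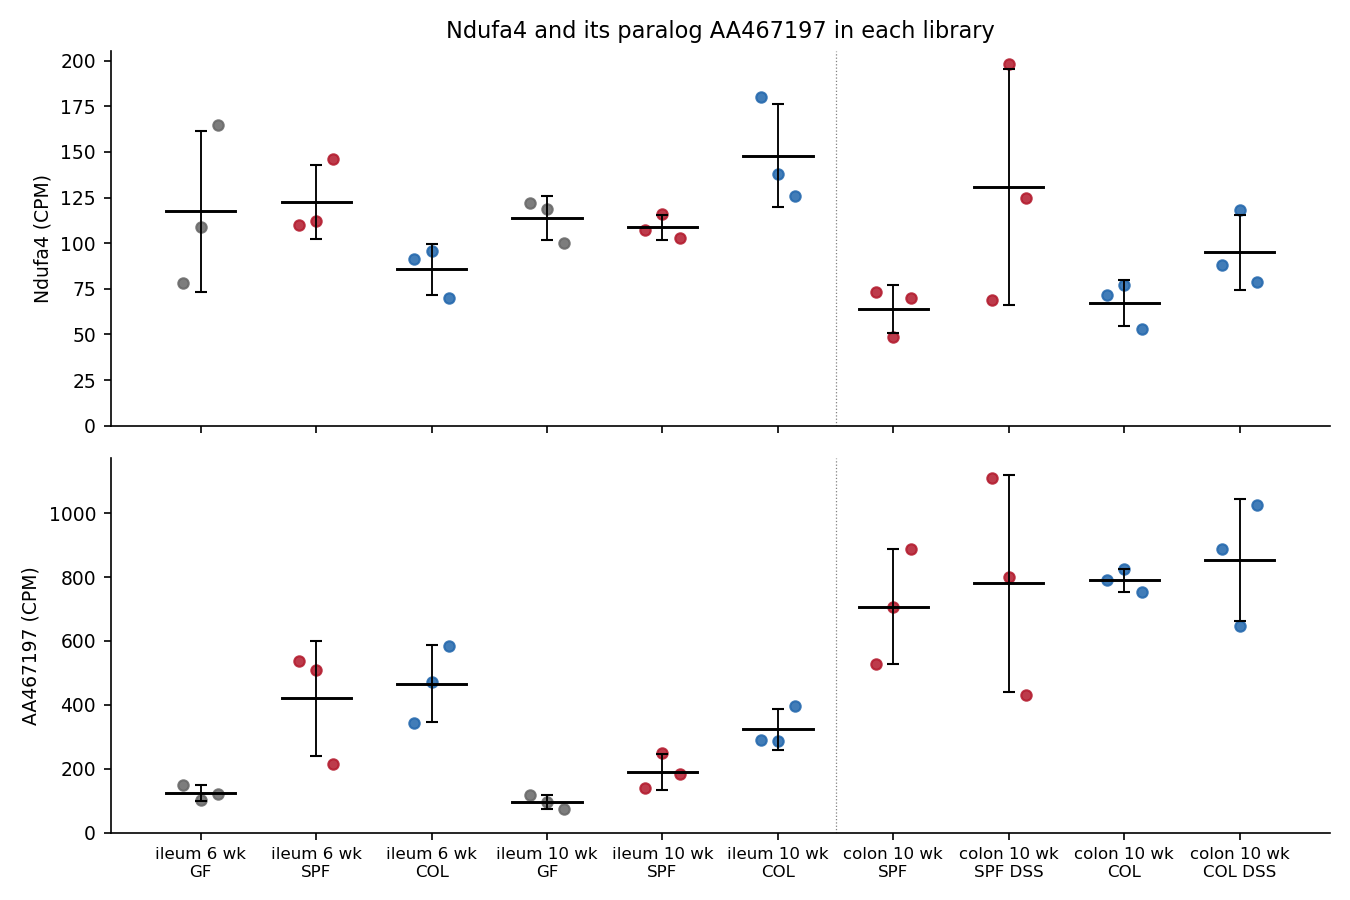
The x axis gives the 10 groups and the y axes CPM of Ndufa4 (upper) and of AA467197 (lower); points are libraries, bars means and whiskers SD (n = 3). AA467197 lies between 75 and 151 CPM in the 6 GF libraries and between 431 and 1110 CPM in colon, where untreated Ndufa4 lies between 48.7 and 77.2 CPM.

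Colon was set against ileum in untreated mice of 10 weeks, in a fit of the 30 libraries. In SPF mice 10 of 77 subunits were higher in colon and 7 lower (22.1% called, background 32.5%, of which 15.3% higher and 17.2% lower), and in COL mice 14 were higher and 2 lower (20.8% called, background 26.2%, of which 11.9% higher and 14.3% lower). Both shares, taken over both directions, were below the background. By direction, higher calls outnumbered lower ones among the subunits in both statuses, while among all genes lower calls were the larger share. The medians were 0.08 and 0.22, against -0.01 and -0.01 over all genes. The statuses share no library, and 81.8% of subunits had the same sign in both, as did 78.1% of all genes. Higher in colon in both were Ndufa1, Ndufa6, Ndufa7 and Ndufb4 of complex I, Uqcr10 of complex III, Cox6c of complex IV and Atp5h of complex V. Lower in both were Ndufa4 and Cox6b2. Atp5h in SPF mice rested on 1 library: it measured 629, 254 and 217 CPM in colon and 162, 248 and 267 CPM in ileum, which overlap. Its value of 0.70 (adjusted p 0.042) became 0.07 (adjusted p 0.87) without colon replicate 1, and the call was also lost without ileum replicate 1 or 2 (adjusted p 0.2 and 0.061). In COL mice its 0.93 ± 0.27 became 0.65 (adjusted p 0.11) without colon replicate 2. Uqcr10 in SPF mice was at 0.59, with 0.39 (adjusted p 0.13) without ileum replicate 3 and 0.46 (adjusted p 0.073) without colon replicate 3.

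Ndufa6, an accessory subunit of the matrix arm of complex I, measured 606, 818 and 663 CPM in COL colon and 362, 327 and 323 CPM in COL ileum. The gap was wide, with a log2 fold change of 1.04 ± 0.16 and an adjusted p of 5.6e-06. In SPF mice it was 579, 556 and 577 CPM against 335, 412 and 382 CPM (0.60 ± 0.16, adjusted p 0.0041). Cox6b2, the testis isoform of a complex IV subunit, did not pass 23.2 CPM in any library and stood at 12.6, 16.2 and 13.5 CPM in SPF ileum and 2.96, 5.76 and 3.23 CPM in SPF colon. The groups were apart (-1.81 ± 0.36, adjusted p 0.00021). In COL mice the values were 11.8, 7.12 and 10.7 CPM and 5.39, 3.96 and 5.97 CPM (-0.95 ± 0.35, adjusted p 0.041), a call lost without any of 4 single libraries (replicates 1 and 2 in colon, 1 and 3 in ileum), at adjusted p-values from 0.081 to 0.17. Its partner Cox6b1 was not called in either status. Ndufa4 stood at 73, 48.7 and 69.7 CPM in SPF colon and 107, 116 and 103 CPM in SPF ileum, apart (-0.77 ± 0.27, adjusted p 0.03). That call was lost without colon replicate 2 (-0.61, adjusted p 0.14) or without ileum replicate 1 or 2, at adjusted p-values of 0.057 and 0.066. In COL mice it stood at 71.5, 77.2 and 53.2 CPM and 180, 138 and 126 CPM (-1.13 ± 0.27, adjusted p 0.0019). AA467197 went the other way, higher in colon by 1.90 ± 0.32 in SPF and 1.28 ± 0.31 in COL mice. Uqcrb measured 326, 461 and 372 CPM in COL colon and 218, 221 and 200 CPM in COL ileum, apart (0.86 ± 0.18, adjusted p 0.00056). Ndufa1, an accessory subunit of the membrane arm, measured 774, 876 and 857 CPM in COL colon and 508, 485 and 468 CPM in COL ileum (0.78 ± 0.20, adjusted p 0.0039), and the small complex III subunit Uqcr10 was higher there by 0.69 ± 0.18 (adjusted p 0.0053). The 5 lower in SPF colon alone by call were Atp5b, Ndufs4, Ndufs6, Ndufa11 and Uqcrc1, from -0.73 to -0.61, and whether the statuses differ in them was not tested. Cox6a1 was higher in SPF colon by 1.08 ± 0.30 (adjusted p 0.0058), with 1866, 978 and 930 CPM against 449, 607 and 732 CPM. Without colon replicate 1, its highest library, the value was 0.68 with an adjusted p of 0.095.

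**Figure D5:**
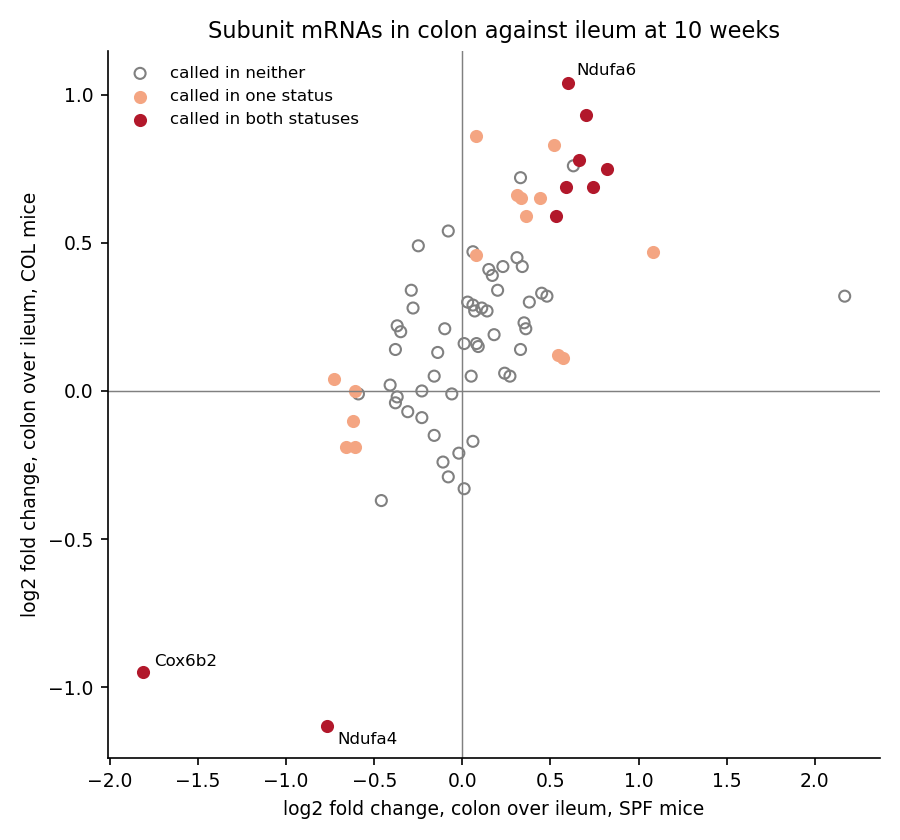
Each point is a subunit mRNA, with its log2 fold change of colon over ileum in SPF mice on the x axis and in COL mice on the y axis. Colours give whether edgeR called it in both statuses, in a single status or in neither; Ndufa6 is at the top right, and Cox6b2 and Ndufa4 are at the bottom left.

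Called in SPF mice without each single library were Cox6b2 and Ndufa6, and in COL mice Ndufa1, Ndufa4, Ndufa6, Uqcr10 and Uqcrb. Under the other settings tried, Ndufa6 in SPF mice lost its call, at an edgeR adjusted p of 0.093, and the rest kept theirs. The count in SPF mice was 9 and 8 without colon replicates 1 and 2 and 11 without ileum replicate 3. With only the 6 libraries of the comparison it was 3. In COL mice it was 6 without colon replicate 2. Smooth muscle markers were higher in colon for 7 of 8 in SPF mice and 3 of 8 in COL mice, proliferation markers lower for 5 of 5 in both, and leukocyte markers lower for 5 and 4 of 7. Their part in the subunit values was not tested. Of the 16 glycolysis and lactate genes, 8 were higher and 1 lower in SPF colon (50% and 6.25%, against 15.3% and 17.2% of all genes), and 7 were higher and 1 lower in COL colon (43.8% and 6.25%, against 11.9% and 14.3%). Ppargc1a was higher in colon by 1.79 ± 0.28 in SPF and 1.33 ± 0.28 in COL mice.

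Within a group, the median ratio of a subunit's highest to its lowest library ran from 1.16 in SPF ileum at 6 weeks to 1.49 in untreated SPF colon. The median coefficient of variation was 7.74% and 20.2% in those groups. Cox6a2 was among the 3 most variable genes in every group but was detected at few counts.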

How the data were processed

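Per the labels, total RNA from distal colon and terminal ileum was made into QuantSeq 3′ libraries for Ion Torrent. Per the submitters' processing notes, Trimmomatic 0.36, FastQC 0.11.5, STAR 2.5.3a and HTSeq were used with mm10; the annotation and strand setting are not given in the sources used here. The values deposited by the authors are raw read counts per gene symbol. Reads assigned to genes were 44.6 to 52.7% of those listed in colon and 46.5 to 54.1% in ileum; the 5 summary lines were left out.

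The quasi-likelihood test of edgeR 4.0.16 (R 4.3.3), in its robust form and with TMM scaling, was run on genes passing filterByExpr over 12 colon libraries (12855 genes, biological coefficient of variation 0.28), 18 ileum libraries (13233, 0.234) and all 30 (13807, 0.258), with 1 mean per group. There were 17 comparisons, 2 of them interactions. p-values were adjusted over all genes tested. The fit was tested on simulated data. The members, lists and rule for named genes were chosen with earlier results of these data known: up to 8 called members of smallest p per direction and comparison, tissue isoforms and their partners, Ndufa4 with its paralogs, and up to 2 genes of each other list. The other genes called after DSS, the Atp5g genes, the DSS values of Uqcrc1, and Ndufb11 were added after their values were seen. The 5 lower in SPF colon alone than in ileum fall under the rule. Locations are from GENCODE vM21 (GRCm38) and promoters from RefSeq. Alternatives were DESeq2 1.42.0, its scaling within edgeR, no filter, only the libraries compared, the replicate number as a block, and leaving out each library. Libraries with the same number deviated together at each of 3 numbers in a single comparison, that of 10-week SPF with GF ileum (r = 0.24, 0.18 and 0.16), where the block changed no subunit's call. The numbers come from the sample titles.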

Additional observations from a re-analysis of the deposited data

How the results depend on the processing

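Leaving out 1 library at a time gave 9 to 16 subunits called for DSS in SPF colon (17 with all), 0 to 1 for DSS in COL colon (0), 0 to 1 for SPF against GF ileum at 6 weeks (1) and at 10 weeks (0), 0 to 1 for COL against GF ileum at 10 weeks (1), 0 to 2 for the ages in SPF ileum (0), 0 to 1 for the ages in COL ileum (1), 8 to 20 for colon against ileum in SPF mice (17) and 6 to 14 in COL mice (16). With only the libraries compared, 5 were called for DSS in SPF colon, 3 for DSS in COL colon and 3 for colon against ileum in SPF mice. DESeq2 called 4 for DSS in COL colon and 2 each for COL against GF ileum at 10 weeks and for the ages in SPF and in COL ileum. Without the filter on low counts 1 was called for the ages in SPF ileum and 2 in COL ileum. The cause of these changes was not tested. Of 58 calls of subunits and AA467197, DESeq2 made 58, its scaling within edgeR 57, the fit without the filter 51 and the fit of only the libraries compared 31. Of these calls 0 changed direction. Other named genes, such as Usmg5, Cox10 and Ppargc1a, were not followed through the alternatives.

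With the replicate number as a block, 16 subunits were called for DSS in SPF colon, 14 for colon against ileum in SPF mice and 14 in COL mice, and 52 of the 58 calls were made. Lost were Atp5a1 after DSS, Atp5h, Cox6c and Uqcrc1 in SPF mice, and Cox8a and Ndufb7 in COL mice, between the tissues. The block lost no other of these 58 calls. The few counts of Cox6a2 and Cox8b limit the precision of their values.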
